A study of Homo sapiens with 4 samples.

Results

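The genes of plasminogen activation and coagulation control described here are PLAU, PLAUR, PLAT, SERPINE2, SERPINB2, F3, THBD, TFPI and TFPI2. They were taken by name and make up 9 of the 43622 genes of the deposited expression table. Their RNA was measured in PC3, an established line of human prostate adenocarcinoma, and in PC3-shp14ARF cells, which stably carry a retroviral short hairpin RNA (shRNA) against the tumor suppressor p14ARF. Cells received MLN4924, which inhibits the conjugation of the ubiquitin-like protein NEDD8, or its vehicle DMSO for 3 days. The conditions are Ctrl (PC3, DMSO), MLN (PC3, 1 µM MLN4924), shARF (PC3-shp14ARF, DMSO) and Both (PC3-shp14ARF, 1 µM MLN4924), with 3 libraries each. The hairpin cells were selected with hygromycin, and no control shRNA is named for the Ctrl and MLN cells. So the hairpin, the infection and the selection cannot be told apart. The sample labels name an shRNA, while the series text calls these cells a knockout. The study asks which genes respond to MLN4924 in a way that depends on p14ARF.

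Plasminogen is cut to the protease plasmin by the urokinase PLAU, which works at the cell surface on its receptor PLAUR, and by the tissue activator PLAT. The serpins SERPINE2 (protease nexin-1) and SERPINB2 (plasminogen activator inhibitor-2) block these proteases, and SERPINE2 also blocks thrombin. Tissue factor (F3) starts the extrinsic coagulation pathway, which TFPI holds in check, while its relative TFPI2 mainly inhibits plasmin and other serine proteases in the extracellular matrix. Thrombomodulin (THBD) turns thrombin toward activation of protein C. Urokinase and its receptor are known for their part in the invasion of prostate cancer cells.

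Values are TPM (transcripts scaled by their length and by library), so levels can be compared between genes, and they carry no read depth. Libraries of a condition correlated at Pearson's r of 0.975 to 0.980 on log2(TPM + 0.1) and libraries of different conditions at 0.889 to 0.959, and each library had 19889 to 21455 genes above 0. CDKN2A, the gene of p14ARF, which also encodes p16INK4a, stood at 190.1, 183 and 177 TPM in the Ctrl libraries, 100.4, 133 and 119 in the MLN, 58.2, 58.7 and 60.9 in the shARF and 47.2, 41.2 and 54.0 in the Both libraries. The hairpin libraries were thus lower than their PC3 counterparts with either treatment. The 4 epithelial markers EPCAM, KRT8, KRT18 and CDH1 summed to 371 to 414 TPM in Ctrl, 271 to 303 in MLN, 634 to 727 in shARF and 229.9 to 244 in the Both libraries, while the luminal prostate gene KLK3 was at 0 in all 12. All 4 were higher in shARF than in Ctrl, lower in Both than in shARF and negative in the interaction. The sums of the other marker lists also moved with the conditions. Endothelial markers summed to 114 to 124 TPM in Ctrl and 193 to 195 in shARF, but to 15.5 to 20.7 in MLN and 14.2 to 17.2 in Both. KDR made up most of that sum, and CDH5 had the lowest mean of the 4 markers, 0.0989 TPM. PECAM1 was lower in shARF than in Ctrl (means of 1.91 and 11.7 TPM), where KDR was higher (192 and 105 TPM). Under MLN4924, PECAM1 was lower still, with means of 0.579 TPM in PC3 and 0.173 TPM in hairpin cells. TEK kept condition means of 0.528 to 0.635 TPM. Leukocyte and macrophage markers summed to 161 to 231, 438 to 607, 74.1 to 95.0 and 304 to 344 TPM in Ctrl, MLN, shARF and Both libraries. CD68, a lysosomal protein, made up nearly all of it, while PTPRC, CD14 and CSF1R had means of 0.149, 0.268 and 0.0811 TPM. The 4 fibroblast markers summed to 7.52 to 9.20 TPM in Ctrl, 21.4 to 23.5 in MLN, 8.74 to 10.7 in shARF and 11.5 to 12.7 in the Both libraries. Members of that sum went opposite ways between Ctrl and shARF. Mean COL1A1 was 7.27 TPM in Ctrl and 4.04 in shARF, while mean COL3A1 was 0.525 and 5.28 TPM. The 3 luminal prostate markers summed to 0.183 to 0.669 TPM in Ctrl and 0.535 to 1.02 in shARF, and to 2.63 to 2.84 in MLN and 2.27 to 2.37 in Both. The part of these markers in the results was not tested. In bulk RNA, a change in the share of cells that use a gene cannot be told apart from a change per cell.

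Without MLN4924, the hairpin cells had lower RNA of the urokinase, its receptor, SERPINB2, tissue factor and TFPI2. With MLN4924, PLAU, PLAUR and TFPI2 were not called different between the hairpin and PC3 cells, while SERPINB2 and F3 were still lower. With the drug, PLAT, SERPINE2 and TFPI fell in both kinds of cells, and SERPINB2, F3 and TFPI2 rose in both. THBD was at or near 0 and was not tested. A call means an adjusted p under 0.05 from limma, a linear model fitted here to the 19932 genes that averaged 0.1 TPM or more over all libraries.

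In MLN vs Ctrl, 3 of the 8 tested genes rose and 3 fell, and 2 of them, SERPINB2 and TFPI2, also passed the log2 fold change of 2 that the study's methods use. Of all genes tested, 32.2% rose, 29.4% fell and 9.43% passed that cutoff. In Both vs shARF, 5 rose and 3 fell, with 3 beyond the cutoff (SERPINB2, F3 and TFPI2), beside 28.3%, 32.8% and 9.19% of all genes. More than 6 in 10 of the genes tested were called in each of these drug comparisons, so the number of calls among the 8 says little by itself. In shARF vs Ctrl, 0 rose, 5 fell and 1 (SERPINB2) passed the cutoff, beside 21.0%, 20.4% and 3.19% of all genes. In Both vs MLN, 2 rose, 3 fell and 0 passed the cutoff, beside 11.8%, 20.6% and 2.41%. The drug responses of the hairpin and the PC3 cells were compared by the interaction, which is the log2 fold change in Both vs shARF minus that in MLN vs Ctrl. It was called above 0 for 6 genes and below 0 for 1, beside 11.2% and 17.1% of all genes. With median-of-ratios scaling in place of plain TPM, the genes called higher made up 51.4% rather than 36.4% of all calls in Both vs MLN, and 53.5% rather than 39.5% in the interaction. The 8 genes then gave 3 higher and 3 lower in Both vs MLN and 7 and 1 in the interaction. The median log2 fold change of the 8 genes was 0.09 in MLN vs Ctrl, 1.20 in Both vs shARF, -0.87 in shARF vs Ctrl, -0.11 in Both vs MLN and 0.89 in the interaction. Over all genes tested the medians were 0.05, -0.04, 0.00, -0.08 and -0.09.

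**Figure D1:**
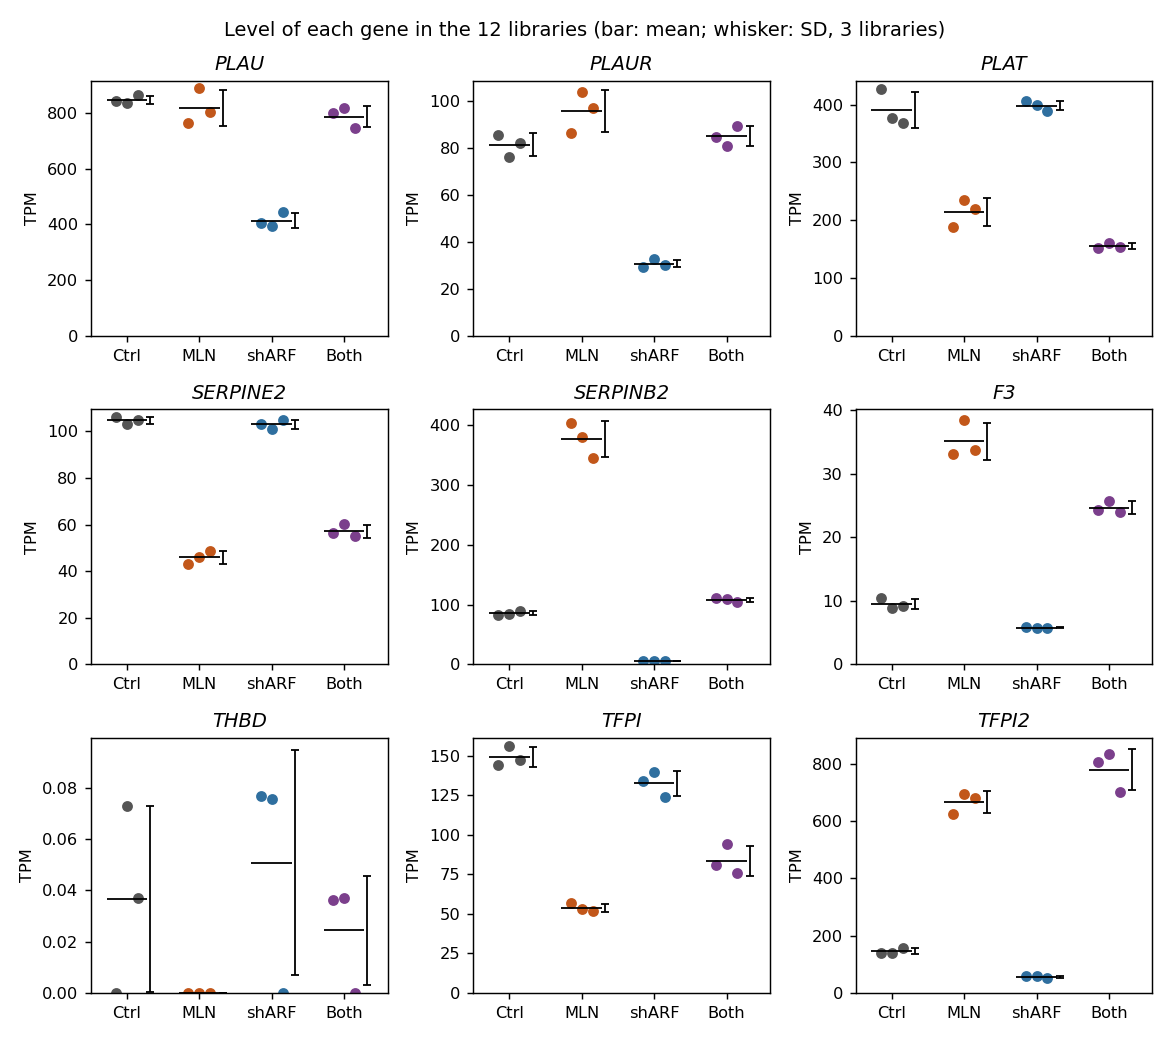
The level of each of the 9 genes (y axis, TPM from 0) in the 12 libraries, with 1 point per library, a bar at the mean and a whisker of 1 SD for each condition (x axis). PLAU and PLAUR are low only in the shARF libraries, PLAT, SERPINE2 and TFPI are low in MLN and Both, and THBD is below 0.08 TPM throughout.

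The promoters of PLAUR, SERPINB2, F3 and TFPI2 are shown because these genes were lower in shARF than in Ctrl and their windows hold TGANTCA, a motif of the AP-1 family of JUN and FOS factors. RefSeq windows of 300 bases (250 before to 50 from the start, GRCh38.p14) were held for 7 of the 9 genes, with PLAT and THBD missing. Letters in capitals mark matches on either strand to TGANTCA, to the NF-kB motif, to TATAAA and to the GC box GGGCGG, and no match overlapped another. Positions are counted from the start, with the first base before it as -1. The sequences are printed 5′ to 3′ on the strand of the gene, PLAUR at chr19:43670120-43670419 (minus), SERPINB2 at chr18:63887455-63887754 (plus), F3 at chr1:94541710-94542009 (minus) and TFPI2 at chr7:93890704-93891003 (minus).
PLAUR: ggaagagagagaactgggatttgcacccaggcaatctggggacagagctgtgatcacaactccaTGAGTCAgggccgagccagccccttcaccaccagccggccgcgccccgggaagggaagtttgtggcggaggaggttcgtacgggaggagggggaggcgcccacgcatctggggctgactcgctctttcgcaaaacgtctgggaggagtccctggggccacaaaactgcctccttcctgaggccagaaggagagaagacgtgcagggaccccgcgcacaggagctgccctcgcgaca
SERPINB2: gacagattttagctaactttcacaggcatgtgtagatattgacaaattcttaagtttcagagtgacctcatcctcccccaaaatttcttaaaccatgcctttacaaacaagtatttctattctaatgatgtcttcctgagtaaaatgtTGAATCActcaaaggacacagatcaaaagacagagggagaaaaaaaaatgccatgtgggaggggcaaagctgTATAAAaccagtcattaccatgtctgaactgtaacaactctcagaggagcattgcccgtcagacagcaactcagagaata
F3: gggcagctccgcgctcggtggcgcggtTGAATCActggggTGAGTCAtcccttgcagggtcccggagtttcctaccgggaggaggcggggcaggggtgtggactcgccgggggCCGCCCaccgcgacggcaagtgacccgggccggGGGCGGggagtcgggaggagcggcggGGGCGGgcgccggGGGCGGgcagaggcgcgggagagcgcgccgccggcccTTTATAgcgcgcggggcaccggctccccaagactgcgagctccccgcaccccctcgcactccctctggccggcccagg
TFPI2: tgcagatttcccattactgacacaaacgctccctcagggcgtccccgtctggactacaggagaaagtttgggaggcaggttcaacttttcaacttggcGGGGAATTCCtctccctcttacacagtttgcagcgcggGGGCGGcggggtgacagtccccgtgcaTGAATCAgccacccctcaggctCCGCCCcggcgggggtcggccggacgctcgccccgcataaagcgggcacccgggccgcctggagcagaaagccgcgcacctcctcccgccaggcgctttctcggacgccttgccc
TGANTCA starts at -186 in PLAUR, -102 in SERPINB2, -223 and -210 in F3 and -87 in TFPI2. It was found in 7.71% of the 35116 promoters of the table. The windows of PLAU, SERPINE2 and TFPI hold no TGANTCA, and of these PLAU also fell in shARF. SERPINB2 has TATAAA at -30, and F3 has it at -28 on the other strand (printed TTTATA), as do 11.5% of all promoters. The NF-kB motif was found in TFPI2 at -152, and in 11.3% of all promoters. F3 holds 4 GC boxes, TFPI2 2 and SERPINE2 1, a motif in 45.0% of all promoters. A match describes only the letters of the window. The RefSeq starts of PLAU, PLAUR, SERPINE2, SERPINB2 and TFPI lie inside the GENCODE genes given below, and only F3 and TFPI2 share the outer start of both annotations.

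PLAU, the urokinase, had the highest mean of the 9 genes in each condition, though its libraries overlapped those of PLAT in shARF and of TFPI2 in Both. It lies on chromosome 10 of GRCh38 at 73909177 to 73917496 (plus strand, 11 exons in the canonical transcript of GENCODE, another release than the table's annotation). The Ctrl libraries had 841, 837 and 863 TPM, the shARF libraries 404, 393 and 444, the MLN libraries 762, 889 and 802 and the Both libraries 798, 817 and 745. The 3 shARF libraries were below the other 9, among which Ctrl, MLN and Both overlapped. Mean PLAU was 2.05-fold higher in Ctrl than in shARF (log2 fold change -1.04, SE 0.054, adjusted p = 0.000206). MLN4924 raised it 1.90-fold in the hairpin cells (0.93, SE 0.066, adjusted p = 7.88e-05). In PC3 cells no difference with the drug was called (-0.05, 95% interval -0.24 to 0.13, adjusted p = 0.567), and Both and MLN were likewise not told apart (-0.05, interval -0.27 to 0.16). The interaction was 0.98 (SE 0.10, adjusted p = 3.66e-05). The antisense gene C10orf55, which overlaps PLAU, had a mean of 4.44 TPM against 716 TPM for PLAU, and the strand of counting is not stated, so reads of the pair cannot be told apart.

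PLAUR, the urokinase receptor, lies on chromosome 19 at 43646095 to 43670547 (minus strand, 7 exons). The Ctrl libraries had 85.8, 76.4 and 82.3 TPM, the MLN libraries 86.3, 104 and 97.3, the shARF libraries 29.5, 32.6 and 30.3 and the Both libraries 84.8, 80.9 and 89.4. As for PLAU, the shARF libraries lay alone, and Both overlapped Ctrl and MLN. The receptor fell by 1.40 on the log2 scale in shARF vs Ctrl (SE 0.060, adjusted p = 0.000119), a mean 2.65-fold lower, and rose by 1.46 in Both vs shARF (SE 0.057, adjusted p = 9.54e-06). In PC3 cells the difference with MLN4924 was 0.23 (interval 0.03 to 0.44, adjusted p = 0.0516), with the MLN libraries all above the Ctrl ones. It passed the threshold in 5 of 14 alternatives, 1 of them the fit without MLN library 1 (0.31, adjusted p = 0.016). The interaction was 1.23 (SE 0.11, adjusted p = 7.91e-06). In Both vs MLN the difference was -0.17 (adjusted p = 0.165), and -0.25 (adjusted p = 0.0472) without MLN library 1. The ligand stayed more abundant than its receptor in every library, with a mean ratio (± SD, n = 3) of 10.4 ± 0.576 in Ctrl, 13.5 ± 1.31 in shARF, 8.53 ± 0.292 in MLN and 9.28 ± 0.889 in Both.

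PLAT, the tissue-type activator, lies on chromosome 8 at 42174718 to 42207709 (minus strand, 14 exons). With DMSO it was at 427, 377 and 369 TPM in PC3 (Ctrl) and 406, 399.7 and 389.7 in hairpin cells (shARF), and with the drug at 188, 235 and 219 (MLN) and 152, 161 and 153 (Both). The DMSO libraries of the hairpin and PC3 cells overlapped, and the drug libraries of both were lower without overlap. With the drug, PLAT fell by 0.87 in PC3 cells (log2, SE 0.10, adjusted p = 0.000606) and fell by 1.36 in the hairpin cells (SE 0.040, adjusted p = 3.67e-06), which left 0.548 and 0.389 of the mean DMSO level. The interaction of -0.49 (SE 0.11, adjusted p = 0.00741) was the only negative interaction called among the 8 genes. In shARF vs Ctrl the difference was 0.03 (interval -0.13 to 0.19, adjusted p = 0.738). Both was lower than MLN (log2 -0.46, adjusted p = 0.0134). That call was lost without Both library 2 (adjusted p = 0.0551) or with no filter on the mean TPM (adjusted p = 0.0584). The ratio of PLAU to PLAT within a library therefore ranged from 0.983 to 1.14 in shARF, where both activators were about equal, over 1.97 to 2.34 in Ctrl and 3.65 to 4.06 in MLN to 4.88 to 5.24 in Both. PLAU and PLAT together summed to 1213 to 1268 TPM in Ctrl, 793 to 834 in shARF, 949 to 1124 in MLN and 898 to 978 in Both.

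SERPINB2, plasminogen activator inhibitor-2, had the widest range of the 8 tested genes on the log2 scale. It lies on chromosome 18 at 63871692 to 63903888 (plus strand, 8 exons), where GENCODE also has an overlapping gene on the same strand that was not analysed here. Ctrl libraries had 82.4, 84.8 and 89.6 TPM, MLN 404, 380 and 345, shARF 6.07, 5.37 and 5.60, and Both 111, 109 and 104. No 2 conditions overlapped, and the order from low to high was shARF, Ctrl, Both and MLN. In DMSO, the mean was 15.1-fold higher in Ctrl than in shARF (log2 -3.89, SE 0.059, adjusted p = 1.11e-05). The drug raised it 4.39-fold in PC3 cells (2.13, SE 0.071, adjusted p = 7.32e-06) and 19.0-fold in the hairpin cells (4.22, SE 0.059, adjusted p = 6.48e-07). Both still lay below MLN (log2 -1.80, SE 0.072, adjusted p = 0.000207), where the mean was 3.49-fold higher. The interaction was 2.09 (SE 0.096, adjusted p = 4.95e-08), place 54 from the top among the 9330 genes that averaged 10 TPM or more. These 2 drug responses start from levels that differ, and on the TPM scale the increase was larger in PC3 cells.

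SERPINE2, protease nexin-1, lies on chromosome 2 at 223975045 to 224039318 (minus strand, 9 exons) and moved the opposite way with the drug. With DMSO, Ctrl stood at 106, 103 and 105 TPM and shARF at 103, 101 and 105, and with the drug MLN stood at 43.0, 45.9 and 48.8 and Both at 56.2, 60.2 and 54.9. Ctrl and shARF overlapped and lay above all drug libraries. With MLN4924 it fell by 1.19 (log2, SE 0.055, adjusted p = 1.81e-05) in PC3 and fell by 0.86 (SE 0.045, adjusted p = 2.54e-05) in hairpin cells, and the interaction was 0.33 (SE 0.078, adjusted p = 0.00764). In shARF vs Ctrl the difference was -0.02 (interval -0.08 to 0.04, adjusted p = 0.573). Both exceeded MLN by 0.31 (adjusted p = 0.0157). That call was lost without Both library 2 (adjusted p = 0.0528), without MLN library 2 (adjusted p = 0.0575) or with no filter on the mean TPM (adjusted p = 0.052). The ratio of SERPINB2 to SERPINE2 spanned 0.053 to 0.0588 in shARF, 0.778 to 0.857 in Ctrl, 1.82 to 1.97 in Both and 7.07 to 9.38 in MLN. Relative to the urokinase, SERPINB2 ranged from 0.0126 to 0.015 in shARF to 0.428 to 0.53 in MLN, with 0.0979 to 0.104 in Ctrl and 0.134 to 0.139 in Both. So SERPINB2 RNA stayed below PLAU RNA in all 12 libraries.

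F3, tissue factor, the cell-surface receptor that starts coagulation, was the lowest of the 8 tested genes in every condition except shARF. It lies on chromosome 1 at 94529173 to 94541759 (minus strand, 6 exons). Ctrl libraries had 10.4, 8.84 and 9.19 TPM, MLN 33.2, 38.5 and 33.7, shARF 5.86, 5.78 and 5.69, and Both 24.3, 25.8 and 24.0. The 4 conditions did not overlap and kept the order seen for SERPINB2. The drug raised F3 3.70-fold in PC3 cells (log2 1.88, SE 0.092, adjusted p = 2.09e-05) and 4.28-fold in hairpin cells (2.08, SE 0.052, adjusted p = 2.35e-06). The responses were not shown to differ (interaction 0.20, interval -0.04 to 0.45, adjusted p = 0.212), although with median-of-ratios scaling the interaction of 0.30 was called (adjusted p = 0.0328). The hairpin libraries were lower with DMSO (log2 -0.70, SE 0.076, adjusted p = 0.00173) and with the drug (-0.50, SE 0.074, adjusted p = 0.00513).

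TFPI, the inhibitor of the tissue factor pathway, lies on chromosome 2 at 187464230 to 187565760 (minus strand, 8 exons). Ctrl libraries had 144, 156 and 147 TPM, shARF libraries 134, 139.8 and 124, MLN libraries 56.6, 53.1 and 51.9 and Both libraries 81.2, 94.0 and 75.6. The conditions did not overlap, though shARF lay just under Ctrl, and that difference of -0.17 was not called (interval -0.31 to -0.02, adjusted p = 0.0664). With MLN4924, TFPI fell by 1.46 in PC3 (log2, SE 0.054, adjusted p = 9.09e-06) and fell by 0.67 in the hairpin cells (SE 0.091, adjusted p = 0.00116). The interaction was 0.80 (SE 0.11, adjusted p = 0.000263), and Both exceeded MLN by 0.63 (SE 0.090, adjusted p = 0.00456). TFPI fell where F3 rose, and the ratio of F3 to TFPI went from 0.0567 to 0.0726 in Ctrl to 0.586 to 0.725 in MLN, and from 0.0414 to 0.0458 in shARF to 0.275 to 0.318 in Both.

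TFPI2, the matrix-bound relative of TFPI, lies on chromosome 7 at 93885396 to 93890753 (minus strand, 5 exons) and overlaps GNGT1 on the other strand, which had a mean of 0.0318 TPM. Ctrl libraries had 139.6, 138 and 158 TPM, shARF libraries 58.0, 58.9 and 51.2, MLN libraries 623, 695 and 680.4 and Both libraries 806, 833 and 700.1. The shARF libraries were the lowest and the Both libraries the highest of the 12. TFPI2 was 2.59-fold higher in Ctrl than in shARF (log2 -1.37, SE 0.080, adjusted p = 0.000282). MLN4924 raised it 4.59-fold in PC3 (2.20, SE 0.076, adjusted p = 7.71e-06) and 13.9-fold in hairpin cells (3.79, SE 0.088, adjusted p = 1.94e-06). The interaction of 1.60 (SE 0.12, adjusted p = 2.68e-06) took place 102 from the top among the same 9330 genes. Both vs MLN gave 0.22 (interval -0.01 to 0.45, adjusted p = 0.122), and 0.32 with median-of-ratios scaling, which was called (adjusted p = 0.0236). The ratio of TFPI2 to TFPI (mean ± SD, n = 3) was 0.978 ± 0.0952 in Ctrl and 0.422 ± 0.0108 in shARF, against 12.4 ± 1.20 in MLN and 9.34 ± 0.542 in Both, so with DMSO the pair was near 1 to 1 in PC3 cells, and with MLN4924 TFPI2 dominated in both. TFPI and TFPI2 summed to 283 to 305 TPM in Ctrl, 175 to 199 in shARF, 679.9 to 748 in MLN and 776 to 927 in Both.

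THBD, thrombomodulin, is a gene of 1 exon on chromosome 20 at 23045633 to 23049672 (minus strand). It was listed at 0, 0.0728 and 0.0370 TPM in Ctrl, at 0 in all 3 MLN libraries, at 0.0766, 0.0756 and 0 in shARF and at 0.0364, 0.0370 and 0 in Both. Its mean of 0.0280 TPM was under the limit for testing, and no fold was formed. F2, the gene of prothrombin, and PROC, that of protein C, had means of 0.0547 and 0.570 TPM, while PROCR, the endothelial protein C receptor, had 651 TPM.

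**Figure D2:**
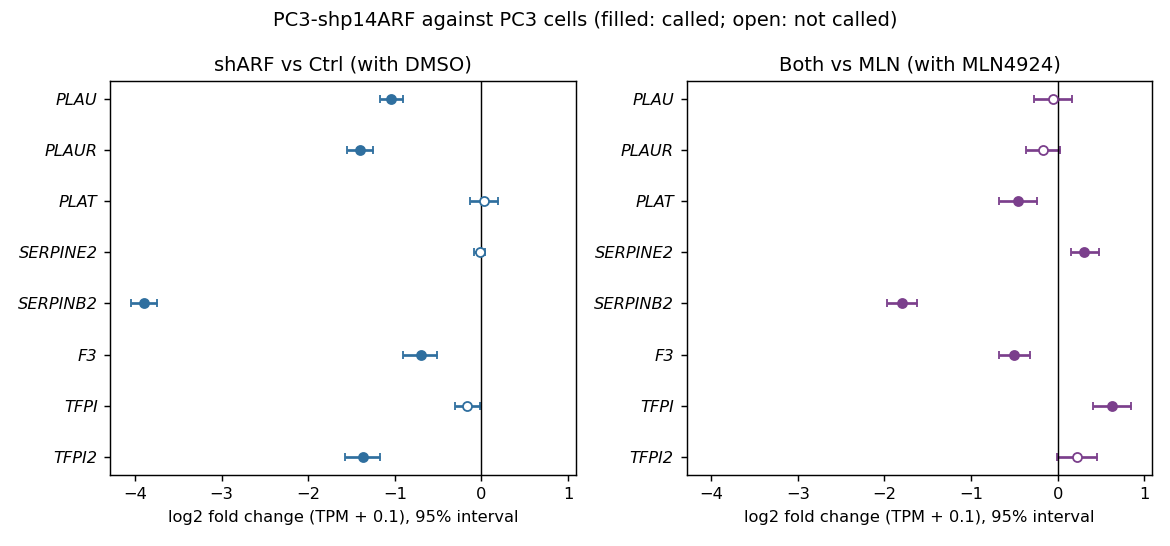
Log2 fold change (x axis, on TPM + 0.1, with 95% intervals) of the 8 tested genes between PC3-shp14ARF and PC3 cells, with DMSO (left) and with MLN4924 (right). Filled points were called and open ones were not. PLAU, PLAUR, SERPINB2, F3 and TFPI2 lie to the left of 0 with DMSO, and PLAU, PLAUR and TFPI2 lie near 0 with the drug.

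**Figure D3:**
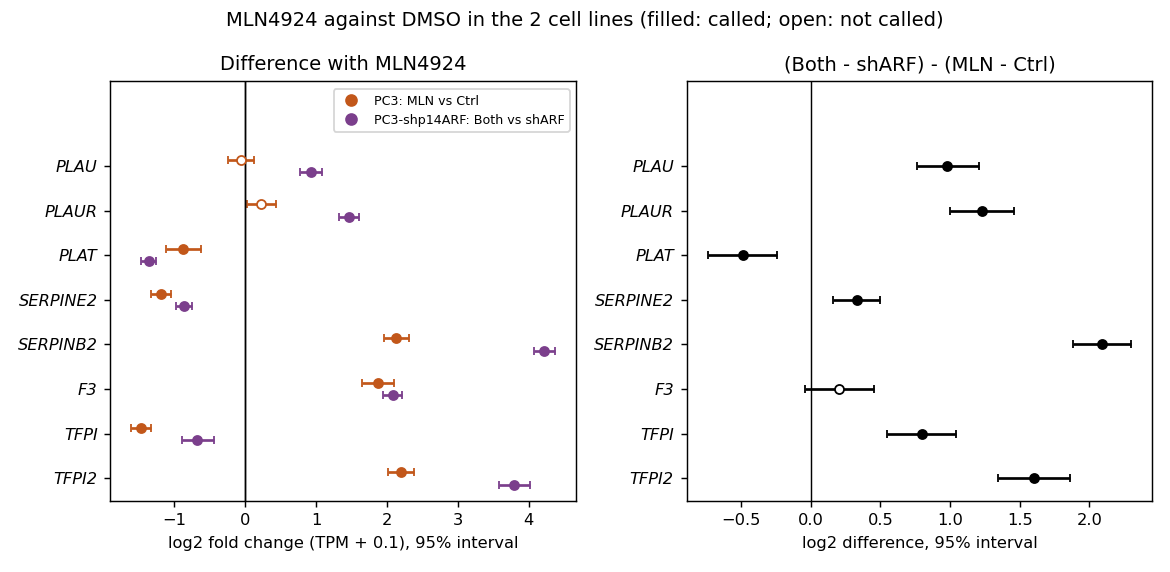
Log2 fold change (x axis, with 95% intervals) with MLN4924 in PC3 and in PC3-shp14ARF cells (left), and the difference between these 2 responses (right), for the 8 tested genes. Filled points were called. SERPINB2 has the largest of the 8 differences at 2.09, PLAT has a negative one at -0.49, and the interval of F3 includes 0.

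The 4 pairwise comparisons share libraries, so a low shARF level enters both shARF vs Ctrl and Both vs shARF. For PLAU, PLAUR and TFPI2 the values were -1.04, -1.40 and -1.37 in shARF vs Ctrl and -0.05, -0.17 and 0.22 in Both vs MLN, where none of these 3 was called. For SERPINB2 and F3 both comparisons were called, with -3.89 and -1.80 for SERPINB2 and -0.70 and -0.50 for F3. Summed over the 8 tested genes, the libraries held 1781 to 1836 TPM in Ctrl, 1136 to 1156 in shARF, 2195 to 2441 in MLN and 1945 to 2181 in Both.

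**Figure D4:**
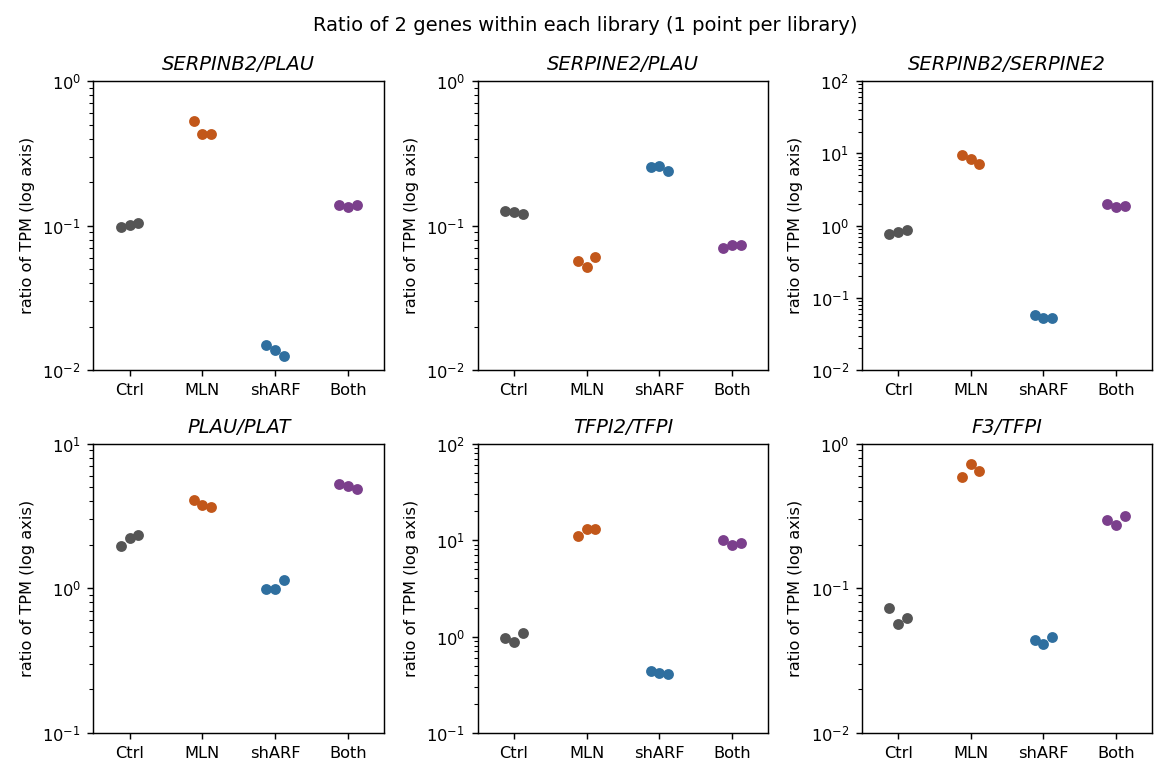
Ratios of TPM between 2 genes (y axis, log scale) in each of the 12 libraries by condition (x axis). In all 6 panels the shARF libraries are at an extreme, with SERPINB2 to PLAU at 0.0126 to 0.015 and TFPI2 to TFPI at 0.412 to 0.434.

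The correlation of log2 levels between tested genes across the 12 libraries is a description only, since the libraries share 4 conditions. The pairs named here are the highest and lowest of a range, and no grouping was tested. Others lay between, such as SERPINB2 and F3 at 0.89. PLAU and PLAUR correlated at Pearson's r of 0.97, PLAUR and SERPINB2 at 0.96, F3 and TFPI2 at 0.97, and SERPINE2 and TFPI at 0.97. F3 and SERPINE2 were opposed (r = -0.96), as were PLAT and TFPI2 (r = -0.92). Of 9329 other genes that averaged 10 TPM or more, the 3 most like PLAU were the chemokine genes CXCL2, CXCL1 and CXCL6 (r = 0.986, 0.986 and 0.985). Mean CXCL1 was 7.68 TPM in shARF, against 1266 in Ctrl, 758 in MLN and 822 in Both, so its low level in shARF was far deeper than that of PLAU. The 3 most like PLAUR were FN1, the gene of fibronectin, ZSWIM4 and JUN, a subunit of AP-1 (r = 0.994, 0.983 and 0.982). JUN averaged 70.6 TPM in shARF, and 129, 129 and 131 TPM in Ctrl, MLN and Both.

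SERPINB2 was most like FGF5, a growth factor gene, CCNA1, which encodes cyclin A1, and EVA1A (r = 0.998, 0.997 and 0.995). F3 was most like CAV2, the gene of caveolin-2, CREB5 and ARTN (r = 0.998, 0.997 and 0.996). CAV2 averaged 18.5 and 10.4 TPM in the DMSO conditions Ctrl and shARF and 73.9 and 53.6 in MLN and Both. TFPI2 was most like TIFA, DLGAP1-AS2 and GRAMD1B (r = 0.995 each). Among the genes that fell with the drug, PLAT was most like SLC25A23, CREB3L4 and SPINT2, the gene of a protease inhibitor (r = 0.996, 0.994 and 0.994). SERPINE2 was most like AP3B1, ATRN and FAM120A (r = 0.998, 0.997 and 0.997), and TFPI was most like PIGK, the protease ADAM10 and MTDH (r = 0.994, 0.993 and 0.992).

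Beyond the 9 genes, 17 other genes of the plasminogen system were listed, of which 11 were tested. In MLN vs Ctrl 2 rose and 8 fell, beside 32.2% and 29.4% of all genes tested. In Both vs shARF 2 rose and 7 fell, beside 28.3% and 32.8%. The list medians were -0.46 and -0.65, against 0.05 and -0.04 over all genes tested. In shARF vs Ctrl 1 rose and 4 fell, beside 21.0% and 20.4% of all genes, with a median of -0.15 against 0. In Both vs MLN 1 rose and 4 fell, beside 11.8% and 20.6%, with a median of -0.22 against -0.08. The interaction was called positive for 3 and negative for 4, beside 11.2% and 17.1%, with a median of -0.37 against -0.09. Plasminogen itself (PLG) was at 0 in all but 3 libraries, with at most 0.0247 TPM, so the substrate of the activators was hardly present as RNA. Of its surface receptors, ENO1, S100A10 and ANXA2 were abundant, while PLGRKT averaged 18.7 TPM over all libraries. ENO1 (alpha-enolase) averaged 2459 and 2654 TPM in Ctrl and shARF and 1643 and 1255 in MLN and Both. It fell with the drug by 0.59 in PC3 (adjusted p = 0.00519) and fell by 1.08 in hairpin cells (adjusted p = 3.88e-05). ANXA2, which binds plasminogen and PLAT, fell by 1.00 (adjusted p = 0.000127) and fell by 0.85 (adjusted p = 2.31e-05), whereas its partner S100A10 rose by 0.61 (adjusted p = 0.000951) and 0.79 (adjusted p = 9.19e-05). The contact factor F12 gave -1.21 in the interaction (adjusted p = 0.000665).

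The list of coagulation factors held 17 genes, of which 8 were tested. 4 rose and 3 fell in MLN vs Ctrl, and 4 and 4 in Both vs shARF. In shARF vs Ctrl the counts were 3 and 4, and in Both vs MLN 1 and 1. Of the interactions, 2 were called positive and 3 negative. The shares of all genes tested that rose and fell were 32.2% and 29.4%, 28.3% and 32.8%, 21.0% and 20.4%, 11.8% and 20.6%, and 11.2% and 17.1% in that order. The list medians were -0.02, 0.04, 0.13, -0.06 and -0.15, against 0.05, -0.04, 0.00, -0.08 and -0.09 over all genes tested. F7, F10 and F11, the genes of factors made mainly in the liver, were at 0 in all 12 libraries. The genes with high levels serve the synthesis and export of these factors. VKORC1, which recycles vitamin K, fell with the drug by 0.37 in PC3 (adjusted p = 0.0365) and fell by 0.79 in hairpin cells (adjusted p = 0.000326). MCFD2 and LMAN1, which form the cargo receptor for factors V and VIII, went opposite ways, with log2 fold changes of 0.32 for MCFD2 (adjusted p = 0.00136) and -0.96 for LMAN1 (adjusted p = 2.29e-05) in MLN vs Ctrl. LMAN1 had an interaction of 0.71 (adjusted p = 7.56e-05). The fibrinogen gene FGB rose by 2.84 in PC3 (adjusted p = 0.000786), from a mean of 0.318 to one of 2.67 TPM, and by 1.02 in hairpin cells (adjusted p = 0.0262), from 0.484 to 1.10 TPM. Its interaction was -1.81 (adjusted p = 0.014).

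The anticoagulant and thrombin receptor list held 11 genes, of which 7 were tested. 2 rose and 3 fell in MLN vs Ctrl, and 3 and 4 in Both vs shARF. In shARF vs Ctrl the counts were 3 and 2, and in Both vs MLN 0 and 2. Of the interactions, 1 was called positive and 4 negative. These counts stand beside the same shares of all genes tested as for the coagulation factors (32.2% and 29.4% in MLN vs Ctrl, for example). The medians were -0.12, -0.86, 0.87, -0.08 and -0.80, against 0.05, -0.04, 0.00, -0.08 and -0.09 over all genes tested. PROCR averaged 506 and 345 TPM in Ctrl and shARF and 1032 and 720.2 in MLN and Both. It rose by 1.03 (adjusted p = 3.12e-05) and 1.06 (adjusted p = 7.3e-06) with the drug. The thrombin receptor F2R moved against the urokinase, with means of 148, 399.7, 83.5 and 82.2 TPM in Ctrl, shARF, MLN and Both. It was higher in shARF by 1.43 (adjusted p = 1.72e-05) and had an interaction of -1.45 (adjusted p = 9e-07). F2RL1, which trypsin-like proteases cleave, followed with 304, 701, 281 and 261 TPM in the same order and an interaction of -1.32 (adjusted p = 9.9e-06). SERPIND1 (heparin cofactor II), an inhibitor of thrombin, was lower in shARF (log2 -1.58, adjusted p = 0.000216), and its interaction was 1.62 (adjusted p = 1.43e-05).

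F2RL2, a thrombin receptor of the same family that was picked after its values were seen, had the largest fold with the drug of the 26 tested genes of the 3 lists. Ctrl libraries had 1.91, 2.18 and 1.42 TPM, shARF libraries 3.76, 3.81 and 3.52, MLN libraries 189, 201 and 218 and Both libraries 231, 254 and 209.8. The drug libraries of both kinds of cells were far above every DMSO library. The log2 fold change was 6.73 in MLN vs Ctrl (adjusted p = 2.77e-06) and 5.93 in Both vs shARF (adjusted p = 5.77e-07).

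**Figure D5:**
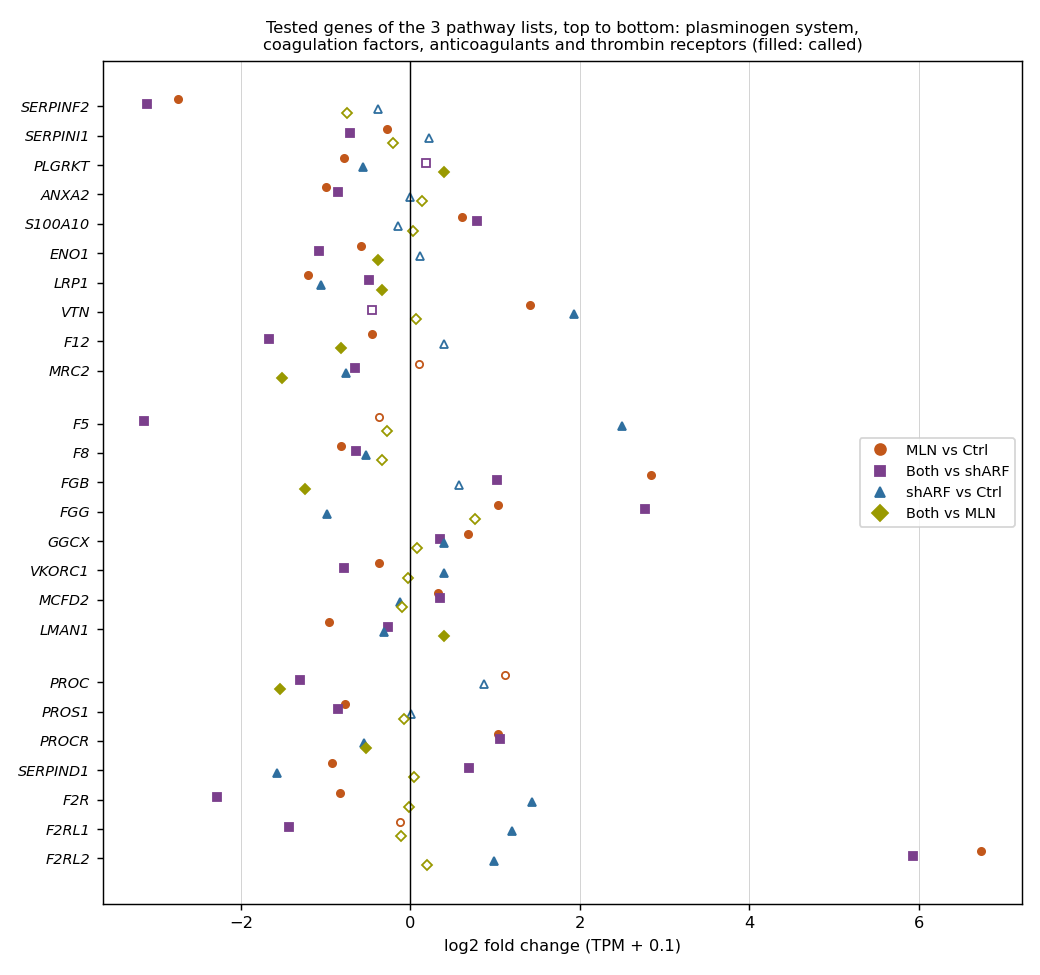
Log2 fold change (x axis, on TPM + 0.1) of the tested genes of the plasminogen system, coagulation factor, and anticoagulant and thrombin receptor lists (rows) in the 4 comparisons (marker shapes), with filled markers for genes called and 1 gene not shown. F2RL2 lies at 6.73 and 5.93 with MLN4924, and F2R and F2RL1 lie to the right of 0 in shARF vs Ctrl and to the left in Both vs shARF.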

How the data were processed

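RNA-seq of PC3 and PC3-shp14ARF cells, each with DMSO or MLN4924, was used with 3 libraries per condition. Per the paper's methods, the authors removed adapters, aligned to hg38 and quantified transcripts on an Ensembl annotation in CLC Genomics Workbench. Strand and read layout are not given in the sources used here. The deposited values are TPM, summing to 1000000 per library, so the depth and counting error of each value are unknown. The series text and the treatment protocol give different units for the dose, and 1 µM is used here.

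Conditions come from the labels and column names, with M4 read as MLN4924. The sources do not say whether the libraries are separate cultures, so p-values measure only the spread between these libraries, which may be technical. Log2(TPM + 0.1) of the 19932 genes that averaged 0.1 TPM or more was fitted by lmFit and eBayes with trend (limma 3.58.1, R 4.3.3) on the 6 libraries of each pair, and on all 12 for the interaction, and p-values were adjusted after Benjamini and Hochberg across all these genes. This scale understates changes of low genes. Folds are ratios of mean TPM. The fits were tried on simulated data, in which far fewer genes changed than were called here.

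Genes and lists were chosen with earlier results of these data known. The text names the 9 genes, CDKN2A, and from each pathway list the 3 with the highest mean and the 2 with the largest interaction among those averaging 1 TPM or more. Of the genes this rule names, 1 is not reported here, though it stays in the counts of its list. Likeness is Pearson's r over the 12 libraries. Marker lists cover epithelial, luminal prostate, endothelial, fibroblast, and leukocyte and macrophage genes. Positions are from GENCODE on GRCh38, another release than the authors' annotation, and promoters from RefSeq. Alternatives were other pseudocounts, filters and scaling, eBayes without trend, 1 fit of 4 conditions, a replicate block and each library left out.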

Additional observations from a re-analysis of the deposited data

Results flagged for a closer look

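The response to MLN4924 differed between PC3-shp14ARF and PC3 cells for 7 of the 8 tested genes, by the limma test of the difference itself over the 12 libraries, where 11.2% of all genes tested were called higher and 17.1% lower. The difference (log2) was 2.09 for SERPINB2, 1.60 for TFPI2, 1.23 for PLAUR, 0.98 for PLAU, 0.80 for TFPI and 0.33 for SERPINE2, and it was -0.49 for PLAT. For PLAU and PLAUR the response was called in the hairpin cells and not in PC3 cells. For SERPINB2 and TFPI2 the rise was larger on the log2 scale in the hairpin cells, and for TFPI and SERPINE2 the fall was smaller. For PLAT it was deeper. Conditions of 3 libraries were not screened for single libraries that stand apart.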

How the results depend on the processing

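The 8 tested genes gave 584 values under the alternatives, of which 560 kept their direction and side of the threshold, 12 lost and 9 gained the call, and 3 turned direction. The 3 that turned were not called at any setting, namely PLAT in shARF vs Ctrl without Ctrl library 3 (-0.0085, range -0.0085 to 0.10 over left-out libraries) and PLAU in Both vs MLN with median-of-ratios scaling (0.038) or without MLN library 2 (0.008, range -0.10 to 0.008). Of the counts of called genes among the 8, that of Both vs MLN (5) was 3 with no filter and 3 to 6 with each library left out, the lowest without Both library 2. That of shARF vs Ctrl (5) was 0 with the replicate block, where 0 of all genes were called by limma and 7757 had an unadjusted p under 0.05, with few residual degrees of freedom. The correlation of deviations was -0.15 to 0.06 for libraries with the same number and -0.11 to 0.13 for others. It rests on 3 libraries per condition and cannot show whether equal numbers mark a shared culture or batch. With the block, calls over all genes fell to 5708 from 12283 in MLN vs Ctrl and to 3105 from 5645 in the interaction, and PLAT lost its call in both (adjusted p = 0.0578 and 0.11). The block could not be fitted in Both vs shARF and Both vs MLN, which share 1 number each. Over all genes, Both vs MLN (6464 calls) gave 3704 with no filter, 4005 without MLN library 2 and 4199 without Both library 2. Genes beyond a log2 fold change of 2 numbered 702, 712, 222 and 78 with a pseudocount of 1, and 1188, 1210, 423 and 265 with a filter at a mean of 1 TPM, in MLN vs Ctrl, Both vs shARF, shARF vs Ctrl and Both vs MLN. With a pseudocount of 1, 2 rather than 3 of the 8 genes were beyond it in Both vs shARF. With a filter at a mean of 1 TPM, TFPI was called in shARF vs Ctrl (adjusted p = 0.0426). The causes were not tested.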

Other observations

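Some genes next to the 8 tested ones in the genome also moved. Such calls are common, as 32.2% of all genes tested rose and 29.4% fell in MLN vs Ctrl. In Both vs shARF 28.3% rose and 32.8% fell, and in shARF vs Ctrl 21.0% and 20.4%. In the interaction 11.2% were called higher and 17.1% lower. The neighbours of PLAU, PLAUR, PLAT and SERPINE2 are not described. The neighbour was taken as the nearest protein-coding gene with a mean of at least 1 TPM on each side, a rule set after values were seen. Next to SERPINB2, SERPINB7, a serpin 66.3 kb away with a mean of 126 TPM, was lower in shARF (log2 fold change -2.86, limma, adjusted p = 2.77e-05) and had an interaction of 1.76 (adjusted p = 1.59e-06), but with MLN4924 it fell by 0.49 in PC3 cells (adjusted p = 0.0002), where SERPINB2 rose. On the other side, HMSD was lower in shARF (-1.55, adjusted p = 5e-05) and rose with the drug by 1.03 in PC3 (adjusted p = 0.000382) and 1.71 in hairpin cells (adjusted p = 4.78e-05).

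Next to TFPI2, GNG11, which encodes a G protein gamma subunit, was lower in shARF (-1.22, adjusted p = 0.000532). It rose by 1.67 (adjusted p = 7.67e-05) and 2.33 (adjusted p = 5.35e-06) with the drug. In Both vs MLN, where 20.6% of all genes tested were called lower, GNG11 was lower (limma, -0.57, adjusted p = 0.0133). TFPI2 was not called there. VPS50, 524 kb away on the other side, was lower in shARF (limma, log2 -0.25, adjusted p = 0.0244). With the drug it was lower in PC3 (-0.58, adjusted p = 0.00074) and hairpin cells (-0.56, adjusted p = 0.00294), where TFPI2 rose. CALCRL, a receptor gene 15.8 kb from TFPI, rose with the drug by 1.36 (adjusted p = 0.000152) and 2.78 (adjusted p = 1.87e-05), while TFPI fell. GULP1, 726 kb from TFPI on the other side, also rose, by 0.31 (adjusted p = 0.0165) and 1.47 (adjusted p = 3.91e-05). ABCD3, 10.5 kb from F3, had differences of -0.12 to 0.19 over the 5 comparisons, with adjusted p of 0.0837 to 0.803. On the other side of F3, SLC44A3, with a mean of 1.52 TPM, was lower in shARF than in Ctrl (-2.19, adjusted p = 0.000335) and in Both than in MLN (-2.72, adjusted p = 0.00954), and with the drug it fell by 0.64 in PC3 cells (adjusted p = 0.0274), where F3 rose.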
